A study of Mus musculus with 2 samples.

Results

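The miR-125 family is the mammalian counterpart of lin-4, and in the mouse it is made from 3 loci, Mir125a, Mir125b-1 and Mir125b-2. These 3 were taken by name from the 1973 rows for miRNA genes in each deposited table, through the Ensembl identifier of the row and the mouse gene annotation, and all 3 had a row with counts. The tables come from small RNA libraries of forebrain from newborn B6NCrl mice (postnatal day 0), 1 library from pup 1 (replicate 1) and 1 from pup 3 (replicate 2). Each library was made from total RNA of a single forebrain, with no treatment or altered allele named in the labels, both pups under the same donor entry and the sex not recorded. The study therefore has 1 group of 2 animals and no condition to compare, and the results are levels, their spread between the pups (mean ± SD, n = 2 throughout) and differences between these 2 libraries.

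A miRNA precursor folds into a hairpin, from which a 5p and a 3p arm can be cut, and the mature strand guides a silencing complex to messenger RNAs through its seed, bases 2 to 8. In worms lin-4 and let-7 act in sequence in the heterochronic pathway, which times development. In mammals miR-125 and let-7 both repress Lin28, an RNA-binding protein that blocks let-7 maturation, and miR-125b is known to promote neuronal differentiation and to act at synapses. Each mouse miR-125 locus lies downstream of a miR-99/100 locus and a let-7 locus, so the family exists as part of 3 paralogous clusters.

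The mature sequences, from RefSeq (GRCm38.p6), show which reads can be told apart. They are written 5′ to 3′ with the seed in capitals, and entries were found for both arms of all 3 members. The 5p arms come first.
miR-125a-5p (Mir125a): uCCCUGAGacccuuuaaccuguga
miR-125b-5p (Mir125b-1 and Mir125b-2): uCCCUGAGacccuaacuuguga
miR-125a-3p (Mir125a): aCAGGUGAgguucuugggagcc
miR-125b-1-3p (Mir125b-1): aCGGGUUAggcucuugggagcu
miR-125b-2-3p (Mir125b-2): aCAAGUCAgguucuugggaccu
All members share the 5p seed. miR-125a-5p and miR-125b-5p also share their first 13 bases, and 21 of 24 aligned columns are identical, with 2 gaps. The 22 bases of miR-125b-5p are the same at both miR-125b loci, so a read of exactly this sequence maps to 2 places and is counted at neither. The 3p arms are each made by 1 locus, and their 3 seeds differ from each other and from every other mature sequence in the table. Counted from 1 at the 5′ end, miR-125b-1-3p and miR-125b-2-3p differ by 5 substitutions in 22 bases, G3A, G4A, U7C, C11U and G20C, with the base of miR-125b-1-3p first. miR-125a-3p differs from miR-125b-1-3p by A3G, G7U, U11C and C22U and from miR-125b-2-3p by G4A, G7C, G20C and C22U. The deposited counts are per locus and do not separate the arms. A count at Mir125a can hold both arms, while a count at either miR-125b locus can hold its own 3p arm or a read that runs past the shared bases or carries a change. How the counts of a locus divide among these was not measured here.

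Hairpins were in the same table for Mir125a and Mir125b-1, and are shown with both arms in capitals to place these reads in the precursor.
Mir125a: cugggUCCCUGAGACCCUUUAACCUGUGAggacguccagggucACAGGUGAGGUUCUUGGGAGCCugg
Mir125b-1: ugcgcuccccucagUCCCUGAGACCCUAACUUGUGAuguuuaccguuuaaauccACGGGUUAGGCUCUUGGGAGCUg
The Mir125a hairpin has 68 nt, with its 5p arm at bases 6 to 29 and its 3p arm at bases 44 to 65, and 14 nt between them. The Mir125b-1 hairpin has 77 nt, with arms at bases 15 to 36 and 55 to 76 and 18 nt between them.

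The libraries had 2742746 (pup 1) and 2427066 (pup 3) gene-strand counts, and levels are given as CPM, counts per 1000000 of these. Reads that map to several places, which are in no locus, made up 42.2% and 44.1% of the reads. The forebrain label was set against marker lists. In the neuron list 11 of 13 loci were detected (at least 10 counts in each pup), with 5.00% of the counts in pup 1 and 4.34% in pup 3. Of the liver list both loci were detected, with 0.0172% and 0.0169%, and of 5 muscle loci with a row 4 had no count. These 4 include the numbered copies Mir1a-1, Mir133a-1 and Mir133a-2. Reads of such copies can have several places, so the zeros cannot show that muscle was absent. The hindbrain and spinal cord list held 0.0236% and 0.0268%. The 3 loci of miR-124, the most characteristic neuronal miRNA, had means of 0.959 to 7.06 CPM; they are copies that make the same mature miRNA, so its reads with several places are in none of them.

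Mir125a was the most abundant member (ENSMUSG00000065479.1, chromosome 17, 17830812 to 17830879, plus strand, overlapping an exon of Spaca6, a gene of sperm and egg fusion). It had 19849 counts in pup 1, or 7237 CPM (95% exact Clopper-Pearson interval 7137 to 7338), and 16695 counts in pup 3, or 6879 CPM (6775 to 6983). Its mean of 7058 ± 253 CPM put it at rank 26 of all rows. The intervals of the pups do not overlap, with pup 1 higher on this scale. In bulk tissue, fewer cells that make a miRNA and less of it per cell cannot be told apart. The intervals cover counting error only, since PCR copies of a molecule are counted as separate reads.

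Mir125b-1 came next (ENSMUSG00000093354.1, chromosome 9, 41581926 to 41582002, plus strand, in introns of the noncoding genes 3110039I08Rik and Gm49317 and an exon of Gm28119). It had 8471 counts in pup 1, or 3089 CPM (3023 to 3155), and 8829 counts in pup 3, or 3638 CPM (3562 to 3714), so the library with fewer reads gave more counts at this locus. The mean was 3363 ± 388 CPM, at rank 53, and its spread between the pups was the widest of the family.

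Mir125b-2 was the lowest member (ENSMUSG00000065472.1, chromosome 16, 77646273 to 77646343, plus strand, in an intron of the noncoding host Mir99ahg and an exon of C130023A14Rik). It had 6594 counts in pup 1, or 2404 CPM (2347 to 2463), and 5675 counts in pup 3, or 2338 CPM (2278 to 2400). Its mean was 2371 ± 46.6 CPM, at rank 68. The order Mir125a, Mir125b-1, Mir125b-2 was the same in both pups, and no member's 2 values overlapped those of another. On the strand opposite the members, only 1 count was recorded in pup 1, at Mir125b-2, and none in pup 3.

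**Figure D1:**
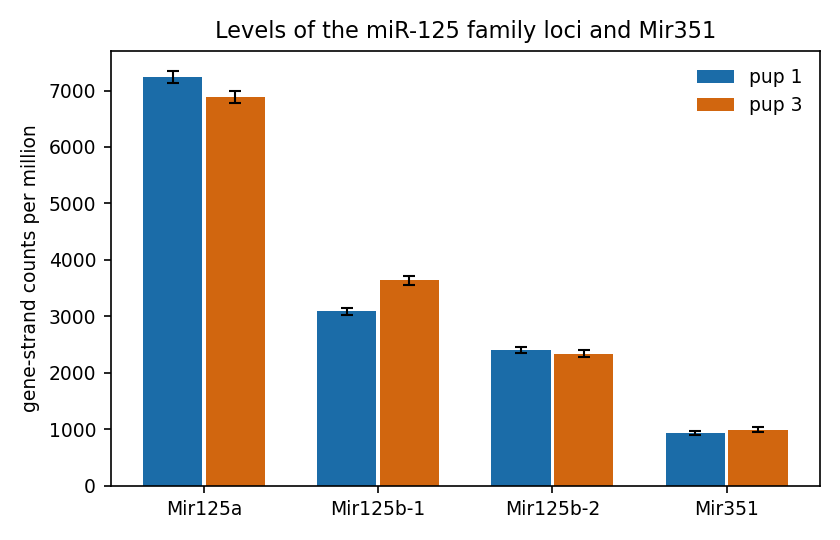
Level of each miR-125 locus and of Mir351, which shares the seed, in CPM; bars are single libraries and error bars are 95% exact Clopper-Pearson intervals, which cover counting error only. Mir125a stands at 7237 and 6879 CPM in the 2 pups, above both miR-125b loci, and Mir351 is the lowest at 932 and 991 CPM.

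The 3 loci together held 1.27% of the counts in pup 1 (95% exact interval 1.26 to 1.29%) and 1.29% in pup 3 (1.27 to 1.30%), a mean of 1.28% ± 0.00884. Mir125a made up 56.9% of the family's counts in pup 1 and 53.5% in pup 3. Mir125b-1 made up 24.3% and 28.3%, and Mir125b-2 18.9% and 18.2%. Both miR-125b loci together had 0.549% and 0.598% of all counts, below Mir125a alone at 0.724% and 0.688%. This order holds for assigned reads only, as miR-125b-5p reads without a unique place are missing from the miR-125b side. Reads that map to several places outnumbered the family's counts by 80.5 to 1 in pup 1 and by 83.2 to 1 in pup 3, and the part of them that is miR-125b was not measured here.

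**Figure D2:**
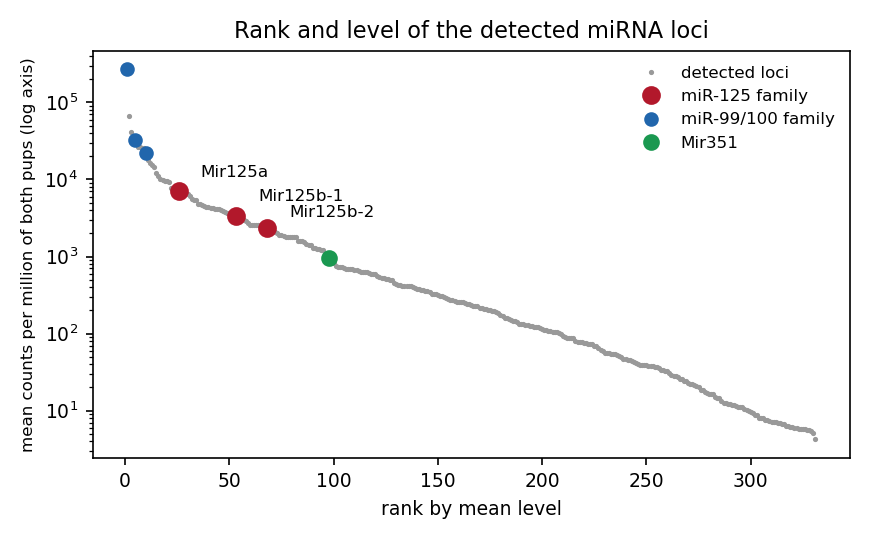
Mean level of both pups in CPM (log axis) against rank for the 331 loci with at least 10 counts in each pup. The miR-125 loci stand at ranks 26, 53 and 68, below the miR-99/100 loci at ranks 1, 5 and 10 and above Mir351 at rank 98.

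Further genes of the RefSeq table make a mature sequence with the same seed, and they are shown with it in capitals.
miR-351-5p (Mir351): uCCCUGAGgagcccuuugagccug
miR-6367 (Mir6367): uCCCUGAGacccugguucagga
miR-6394 (Mir6394): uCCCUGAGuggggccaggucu
Mir351 lies on the X chromosome (53053255 to 53053353, minus strand) with no host gene on its strand. It had 2556 counts in pup 1 (932 CPM) and 2406 in pup 3 (991 CPM), a mean of 962 ± 42.0 CPM at rank 98. That is below each miR-125 locus in both pups. Mir6367 and Mir6394 had no count in either library, where 3 counts, taken as the limit that a count of 0 allows, would be 1.09 CPM in pup 1 and 1.24 CPM in pup 3. All counts at loci with this seed therefore came from Mir351 and the 3 members.

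In each cluster the order along the plus strand is miR-99/100, let-7, miR-125. By assigned reads, the miR-125 locus was the middle one in level. The cluster of Mir125a is compact, spanning 692 nt, with 367 nt between Mirlet7e and Mir125a. The clusters of Mir125b-1 and Mir125b-2 span 50578 and 47408 nt, and the miR-125b locus stands 45114 nt after Mirlet7a-2 and 46522 nt after Mirlet7c-1. Mirlet7e has no row of its own, so its value is the count opposite Gm25927, the annotated gene on the other strand of the same place.

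On chromosome 17, Mir125a stood between Mir99b, with 20830 and 22807 CPM in pups 1 and 3, and Mirlet7e, with 4585 and 4587 CPM. Mir99b was 2.88-fold and 3.32-fold above Mir125a, and Mirlet7e was at 0.634 and 0.667 of the level of Mir125a. Mir125a had 22.2% of the 3 loci's counts in pup 1 and 20.1% in pup 3. The 5p sequences of this cluster are each made by 1 locus in the RefSeq table, so none of them loses reads to an identical copy.

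On chromosome 9, Mir100 had 29670 and 34851 CPM, 9.61-fold and 9.58-fold above Mir125b-1. Mirlet7a-2 had 257 and 357 CPM, so that Mir125b-1 was 12.0-fold and 10.2-fold above it by assigned reads. Mirlet7a-1 and Mirlet7a-2 are numbered copies, and reads of such copies can have several places. Such reads are in neither locus, so these folds are no measure of let-7a as a whole. Mir125b-1 had 9.35% of the cluster's counts in pup 1 and 9.36% in pup 3.

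On chromosome 16, Mir99a, the most abundant row of both libraries, had 254901 and 283764 CPM. It stood 106-fold and 121-fold above Mir125b-2, although Mir99ahg hosts both loci. Mirlet7c-1 had 708 and 921 CPM, and Mir125b-2 was 3.40-fold and 2.54-fold above it. Mir125b-2 had 0.932% and 0.815% of the cluster's counts. The let-7c-5p sequence is made by 2 loci, so Mirlet7c-1, like the miR-125b loci, loses reads that have no unique place. Ligation and amplification favour some sequences, and folds between loci carry that bias as well as level.

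**Figure D3:**
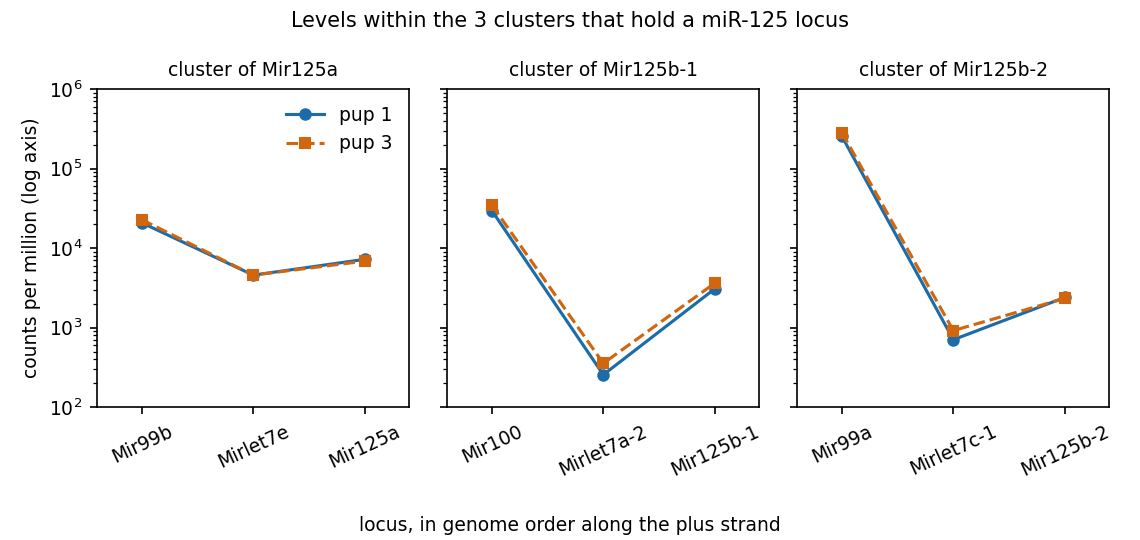
Level of each locus of the 3 clusters in CPM (log axis), in genome order, from reads with a unique place. Points joined by lines are the loci of 1 library. In both pups each miR-125 locus is below its miR-99/100 neighbour and above its let-7 neighbour, and the fold below the miR-99/100 locus runs from 2.88 (Mir125a, pup 1) to 121 (Mir125b-2, pup 3).

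Ratios between members do not depend on how libraries are scaled, and were compared between the pups by Fisher's exact test on the counts (two-sided, Benjamini-Hochberg adjusted over 3 pairs). With 1 library on each side the test compares these libraries and measures read sampling only. Mir125a was 2.34-fold above Mir125b-1 in pup 1 and 1.89-fold in pup 3, a log2 difference of −0.31 (95% exact interval −0.36 to −0.26, adjusted Fisher's exact p = 1.22e-30). Mir125b-1 was 1.28-fold above Mir125b-2 in pup 1 and 1.56-fold in pup 3, a log2 difference of 0.28 (0.21 to 0.34, adjusted Fisher's exact p = 8.27e-16). Mir125a over Mir125b-2 was 3.01 and 2.94, and this log2 difference of −0.03 did not pass (−0.09 to 0.03, adjusted Fisher's exact p = 0.276). In pup 3 Mir125b-1 was thus higher relative to both other members.

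The same test on members against their cluster neighbours covered 6 pairs. Mir125b-1 over Mir100 was 0.104 in both pups, a log2 difference of 0.00 (−0.04 to 0.05, adjusted Fisher's exact p = 0.867). The other 2 members were lower in pup 3 relative to their miR-99/100 neighbour: Mir125a over Mir99b by −0.20 (−0.24 to −0.17, adjusted Fisher's exact p = 6.06e-31) and Mir125b-2 over Mir99a by −0.19 (−0.25 to −0.14, adjusted Fisher's exact p = 2.18e-13). Relative to the let-7 locus of the cluster, all 3 members were lower in pup 3 by assigned reads. The log2 difference was −0.07 for Mir125a over Mirlet7e (adjusted Fisher's exact p = 0.00272), −0.24 for Mir125b-1 over Mirlet7a-2 (p = 0.00255 by the same exact test) and −0.42 for Mir125b-2 over Mirlet7c-1 (p = 1.33e-15 by the same exact test). For scale, the median distance of a single detected locus from the median log2 ratio between the pups was 0.26. The differences above are of ratios between 2 loci, so the measures are not alike.

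Relative to library totals, the members did not move together. Fisher's exact test of each locus against the rest of its library was run on the 400 loci with at least 10 summed counts, with adjustment over all of them. It called 10.2% of tested loci higher in pup 3 and 46.2% lower, 56.5% in all. Of the members, Mir125b-1 was called higher, Mir125a lower, and Mir125b-2 did not pass. Their median log2 ratio (of CPM + 1) was −0.04, against −0.31 over the 400 tested loci. With so many loci called, a call by itself sets no member apart.

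For Mir125b-1 the log2 ratio of pup 3 over pup 1 was 0.24 (95% exact interval 0.19 to 0.28, adjusted Fisher's exact p = 2.19e-26). For Mir125a it was −0.07 (−0.10 to −0.04, adjusted Fisher's exact p = 3.19e-06), with 0.18 under library sizes adjusted by TMM (the trimmed mean of log ratios, which gives single abundant loci less weight) and 0.24 under DESeq2 size factors. For Mir125b-2 it was −0.04 (−0.09 to 0.01, adjusted Fisher's exact p = 0.189), with 0.21 and 0.27 under those scales. Mir125b-1 kept its direction under them, at 0.49 and 0.55. By exact binomial tests all 3 were called higher in pup 3 under TMM and under size factors, where 20.5% and 24.5% of tested loci were called higher and 26% and 20.8% lower. Relative to the median of tested loci, the members stood above it by 0.24 (Mir125a), 0.55 (Mir125b-1) and 0.27 (Mir125b-2) with library totals. A change of scale shifts every locus and the median nearly alike, so these distances could hardly differ under the other scales.

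**Figure D4:**
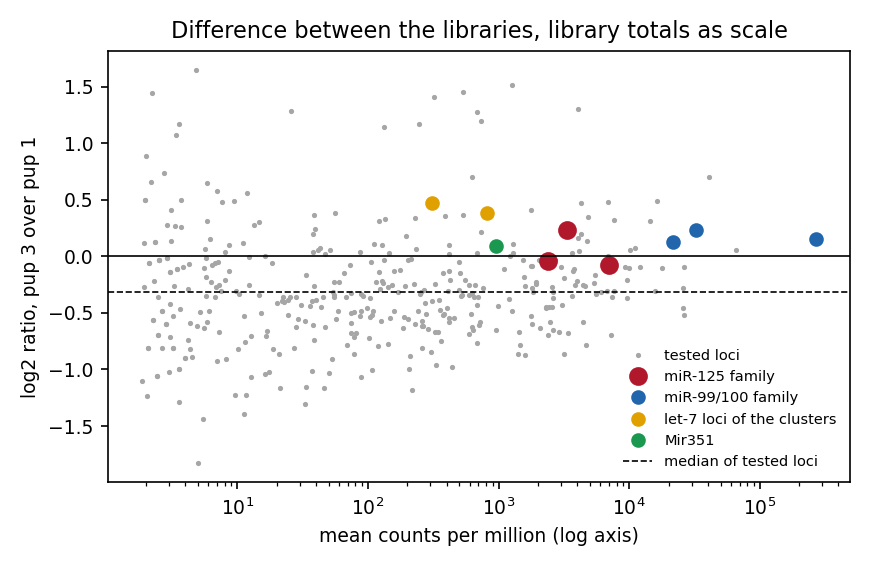
Log2 ratio of pup 3 over pup 1, from CPM + 1 with library totals as scale, against mean level (log axis) for the 400 tested loci; each point is a locus and the dashed line is their median, −0.31. All 3 miR-125 loci lie above the median, with Mir125b-1 at 0.24, and Mir125a and Mir125b-2 just under 0, though above 0 with TMM or DESeq2 size factors.

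The size of these differences among the 331 detected loci depends on the reference point. With library totals, the absolute log2 ratio was smaller than that of Mir125b-2 in 5.44% of them, smaller than that of Mir125a in 10.9% and smaller than that of Mir125b-1 in 29.3%. Measured from the median instead, 52.3%, 46.8% and 81.3% lay closer to it than Mir125b-2, Mir125a and Mir125b-1.

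**Figure D5:**
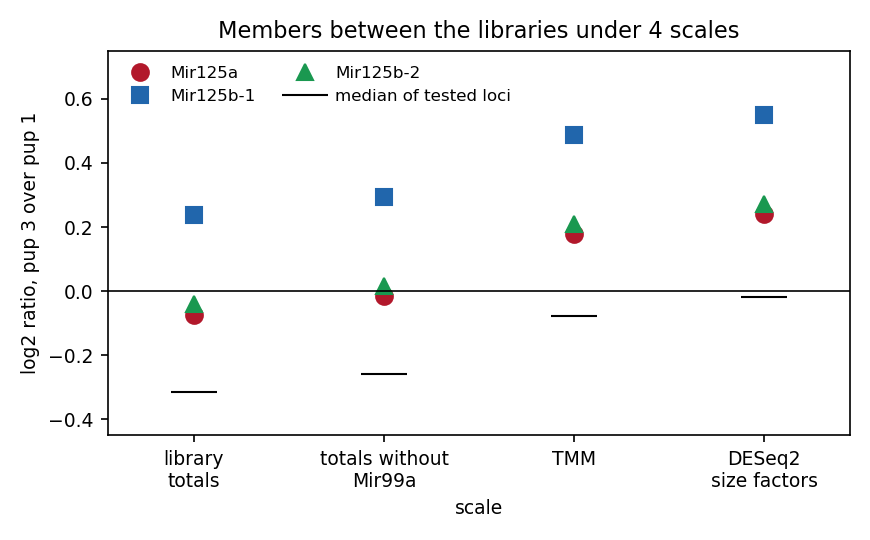
Log2 ratio of pup 3 over pup 1 for each member under 4 scales, with the median of tested loci as a bar. Mir125b-1 is above 0 under each scale, at 0.24 to 0.55. Mir125a is below 0 with library totals and with totals without Mir99a, Mir125b-2 only with library totals, and both are above 0 with TMM and DESeq2 size factors.

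The related families differed between the libraries as well. Of the miR-99/100 loci, 3 of 3 were called higher in pup 3, with a median log2 ratio of 0.15 with library totals, and the same number with TMM and size factors. Over all tested loci, the share called higher was 10.2% with library totals, 20.5% with TMM and 24.5% with size factors. Of the 12 let-7 loci 10 have a row, and 10 of 10 were called higher under these 3 scales, with a median of 0.39 with library totals. Mirlet7e, read opposite Gm25927, was not among the tested loci, and its log2 ratio was 0.0006 with library totals. The miR-99/100 loci held 24.0 times the counts of the miR-125 loci in pup 1 and 26.6 times in pup 3. Mir351 had a log2 ratio of 0.09 (adjusted Fisher's exact p = 0.0536) and was called higher under TMM and size factors, at 0.34 and 0.40. Loci of the epithelium list differed with the pups too. The 7 epithelium loci summed to 0.493% of the counts in pup 1 and 1.06% in pup 3, with 5 called higher and none lower. Those 5 were Mir200a, Mir200b, Mir200c, Mir141 and Mir429, at log2 ratios of 1.14 to 1.51. Mir203 (0.00) and Mir205 (−0.38) were not called, so the list did not move as a whole with library totals. With TMM and with size factors, 6 of 7 were called higher, none lower and 1 not called. The part of these loci in the differences above was not tested. The blood vessel list had 3.50% and 3.94%, with 1 of 3 loci called higher (Mir126a, log2 ratio 0.22) and 2 lower (Mir143 at −0.22 and Mir145a at −0.29) with library totals, and 2 called higher and none lower with size factors. Neural progenitor loci summed to 0.401% and 0.284%, with 1 of 3 tested loci called higher, 1 lower and 1 not called. Of 11 tested neuron loci, 2 were called higher, 7 lower and 2 not called with library totals, where 46.2% of all tested loci were called lower. With size factors 3 were called higher, 5 lower and 3 not called, where 20.8% of all tested loci were called lower.

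The loci nearest to each member, by distance in log2(CPM + 1) over the 2 libraries, were taken from the 330 other detected loci. Nearest to Mir125a were Mir411 (0.09), Mir139 (0.19) and Mir30a (0.19). Nearest to Mir125b-1 were Mir423 (0.21), Mir140 (0.32) and Mir652 (0.32), and nearest to Mir125b-2 were Mir872 (0.16), Mir484 (0.22) and Mir1983 (0.26). No cluster neighbour was among them. With 2 libraries this likeness is mainly one of level.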

How the data were processed

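The authors deposited 1 table of raw, unnormalized counts per library, made on mm10 with annotation M4, per the labels and the file lists. Which aligner and counter they used is not given in the sources used here. The columns were read as both strands, gene strand and opposite strand; the gene strand was used. The 4 rows that name no gene were left out of totals. They hold unmapped reads (13.4% in pup 1, 12.3% in pup 3), reads with several places (42.2%, 44.1%) and ambiguous reads (0). They also hold reads outside the gene strand of miRNA loci (3.23%, 2.27%), which include reads on the strand opposite a locus. Names and coordinates came from GENCODE M21 (GRCm38, the same assembly); 1894 of 1973 rows matched by identifier without version, and the version of Mir125a differs between releases. Sequences are RefSeq's.

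CPM were counts per 1000000 gene-strand counts, and log2 ratios used CPM + 1. Single-library intervals are exact Clopper-Pearson at 95%, and those of log2 differences between pairs are exact conditional ones. A single group gives edgeR's quasi-likelihood test no contrast, so two-sided Fisher's exact tests were used, with Benjamini-Hochberg adjustment at 0.05, checked on simulated data. The simulated counts varied by read sampling and set changes only, so the check does not cover variation between animals. Alternatives were both strands, totals without Mir99a, TMM (edgeR 4.0.16) and DESeq2 1.42.0 size factors with exact binomial tests, filters at 1 and 100 summed counts, pseudocounts of 0.5 and 5, and leaving out a replicate. Loci named are the members, their cluster neighbours, genes with the seed of miR-125b-5p, the 3 nearest loci of each member and some loci of the marker lists. Members and lists were chosen with earlier results of these data known. Other tools were Python 3.11.15, scipy 1.17.1 and R 4.3.3.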

Additional observations from a re-analysis of the deposited data

How the results depend on the processing

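Of 59 values under alternatives other than leaving out a replicate, 43 were labelled the same. These kept their direction and side of the threshold or moved less than the spread between the pups. Numbers of loci called counted as the same within a set fold of the main number. A pseudocount does not enter the test, and counting both strands hardly alters ratios between loci. Such values had little room to change, so the 43 is no measure of stability. Without Mir99a in the total, the family share was 1.75%, the levels were 9658 (Mir125a), 4612 (Mir125b-1) and 3246 CPM (Mir125b-2), and the log2 ratio of Mir125a weakened to −0.016 (adjusted Fisher's exact p = 0.38) while that of Mir125b-2 reversed to 0.017. With both strands counted, the family share was 1.25% and Mir125b-2 had 2321 CPM. With TMM, the log2 ratios of Mir125a and Mir125b-2 reversed to 0.18 and 0.21, and with size factors to 0.24 and 0.27. The number of loci called moved from 41 higher and 185 lower to 82 and 104 with TMM, and to 98 and 83 with size factors.

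Leaving out a replicate gives the value of the other pup and leaves no test between pups; with 2 pups it says nothing about stability. No paired analysis was possible because there is 1 group. The number of miR-125b reads among those with several places is unknown. Each member had at least 5675 counts in each library, so sampling error is small beside the difference between pups for Mir125b-1.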
